A study of Mus musculus with 8 samples.

Results

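The 3 hairpins that encode miR-124 in the mouse, miR-124-1, miR-124-2 and miR-124-3, were followed through 8 libraries of amplicon reads. They are 3 of the 16 amplicons of the series and were taken by name, in both read directions, from each library. This gave 48 sets of reads, of which 2 were empty, and 468161 reads of the 5643911 reads used over all amplicons. Wild-type C57BL/6 mice had received AAV vectors for CRISPR/Cas9 in the motor cortex, and tissue was taken 4 weeks later. All 4 constructs carried Cas9. Guide Sa4 was made against miR-124, guide Sa2 against miR-128, guide Sa1 is described as inoperative, and a construct without a guide was the control. Sorted nuclei of each construct gave 1 Cas9-positive and 1 Cas9-negative library, so that each of the 8 groups is 1 library without replicate. The labels call the tissue brain and the cells neural. The number of mice or nuclei behind a library, the promoter of Cas9 and its species are not given in the sources used here.

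MicroRNAs are cut from a hairpin transcript, first by Drosha in the nucleus and then by Dicer in the cytoplasm. One strand is loaded into an Argonaute protein and guides it to messenger RNAs, mainly by pairing through its seed, bases 2 to 8. miR-124 is among the most abundant microRNAs of neurons and represses many genes of non-neuronal cells. In mammals the same mature strand, miR-124-3p, comes from the 3′ arm of each of these hairpins, and miR-124-5p comes from the 5′ arm.

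The sequences the authors expected for the amplicons are given 5′ to 3′, because every allele is placed on them. Capitals mark mature miR-124-3p.

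miR-124-1: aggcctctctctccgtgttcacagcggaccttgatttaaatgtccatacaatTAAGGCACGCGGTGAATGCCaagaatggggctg

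miR-124-2: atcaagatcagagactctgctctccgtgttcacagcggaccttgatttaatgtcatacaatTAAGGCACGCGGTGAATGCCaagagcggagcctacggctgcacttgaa

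miR-124-3: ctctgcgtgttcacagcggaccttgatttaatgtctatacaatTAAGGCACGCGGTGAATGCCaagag

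These are 85, 109 and 68 bases long, the lengths of Mir124a-1, Mir124a-2 and Mir124a-3 in the RefSeq annotation of assembly GRCm38.p6. There, Mir124a-1 lies in the host gene Mir124a-1hg, Mir124a-2 lies in Mir124-2hg and overlaps the gene Gm51272, and Mir124a-3 overlaps no other listed gene. The build of the study is not given in the sources used here, and no coordinates are printed. Mature miR-124-3p starts at base 53, 62 and 44 of the 3 amplicons, and the 22 bases of miR-124-5p, identical in all of them, start at base 14, 25 and 6. The loops between both arms are 17, 15 and 16 bases long.

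The mature strand is shown again to set off its seed, in capitals, which is the same in all 3 hairpins.

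miR-124-3p: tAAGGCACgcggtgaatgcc

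The hexamer GTGAAT at bases 12 to 17 of the mature strand fits NNGRRT, the motif that Staphylococcus aureus Cas9 requires beside its target. A cut 3 bp before it falls between bases 8 and 9 of miR-124-3p, that is, directly after the seed. The guide's own sequence was not used here. The 21 bases before the hexamer, in lower case, and the hexamer, in capitals, are set side by side to show how alike the 3 sites are.

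site in miR-124-1: tccatacaattaaggcacgcgGTGAAT

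site in miR-124-2: gtcatacaattaaggcacgcgGTGAAT

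site in miR-124-3: tctatacaattaaggcacgcgGTGAAT

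With position 1 as the first of these 21 bases, miR-124-1 and miR-124-2 differ by T1G and C2T, and miR-124-1 and miR-124-3 differ by C3T. The 19 bases nearest the hexamer are identical in miR-124-1 and miR-124-2. Around the cut itself, these hairpins share 16 bases on its left and 16 on its right.

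The alleles that held most indel reads with guide Sa4 in Cas9-positive nuclei are shown over the mature strand. A single capital inside the strand marks an inserted base, and a pair of capitals marks the bases that a deletion joined.

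cytosine insertion, leading at miR-124-1: taaggcaCcgcggtgaatgcc

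thymine insertion, at both hairpins: taaggcacTgcggtgaatgcc

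guanine insertion, at miR-124-2: taaggcacGgcggtgaatgcc

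1-base deletion, at miR-124-1: taaggcaCCggtgaatgcc

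2-base deletion, at miR-124-1: taaggcACggtgaatgcc

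4-base deletion, at miR-124-2: taaggcaCTgaatgcc

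In each of them the letters of the seed read as in the unedited strand, and the first changed letter stands at base 9 or 10. An inserted cytosine could be placed before base 8 or 9 with the same result, an inserted guanine before base 9 or 10, and the 2-base deletion at any of 3 starts from base 8 to 10. Such alleles were named by their leftmost place.

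Depth differed between hairpins and libraries. miR-124-1 had between 3902 reads (Cas9-negative, guide Sa4) and 27166 reads (Cas9-negative, guide Sa1). miR-124-2 was read most deeply in every library, with 11062 to 64494 reads. In miR-124-3 the Cas9-negative libraries had 17002 to 31722 reads, while the Cas9-positive libraries had 13566 with guide Sa2, 1122 without a guide, 118 with guide Sa1 and 0 with guide Sa4. Shares of a library were taken over its reads used, without the sets left out for reads beyond the mutation limit. These were 794105 of 967265 reads in the Cas9-positive Sa2 library and 928399 of 938167 in the Cas9-negative library without a guide. By this measure miR-124-3 took 1.90 to 3.38% in Cas9-negative nuclei and 0 to 1.71% in Cas9-positive nuclei. It was lower in the Cas9-positive library for all 4 constructs, with 0.0383% against 3.38% for guide Sa1, 1.71% against 2.31% for guide Sa2, 0% against 3.15% for guide Sa4 and 0.160% against 1.90% without a guide. The labels do not say whether both fractions of a construct came from the same mice, and the difference was not tested. The share of miR-124-2 was also lower in the Cas9-positive library for all 4 constructs, and that of miR-124-1 for 3 of them. miR-124-2 took 3.31 to 3.59% in all Cas9-positive libraries, so its share of the Sa4 library, 3.56%, was not the low one. Of 15 amplicons with usable reads in some library, miR-124-3 was the only one without any in the Cas9-positive Sa4 library. In the other 7 libraries, 0 amplicons were without reads. No indel share of miR-124-3 can be given for Cas9-positive nuclei with guide Sa4.

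**Figure D1:**
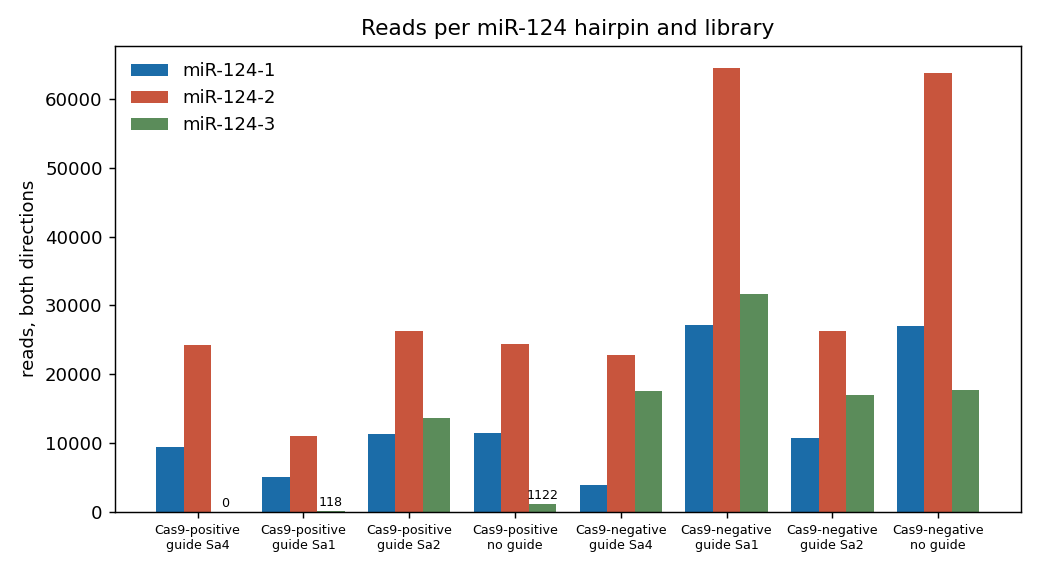
Reads of miR-124-1, miR-124-2 and miR-124-3 (bars, both read directions summed) in each of the 8 libraries, with the lowest counts written out. miR-124-3 falls to 1122, 118 and 0 reads in 3 of the 4 Cas9-positive libraries, while the other hairpins keep at least 5126 reads there.

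With guide Sa4, nearly all miR-124-2 reads and most miR-124-1 reads from Cas9-positive nuclei carried an insertion or deletion within 10 bp of the cut. At miR-124-1 the count was 7888 of 9468 reads, an indel share of 83.3% (95% Wilson interval 82.5 to 84.0%). In the 6 libraries without guide Sa4 it lay between 0.0221% and 0.0613%, and the library without a guide, the highest of them, had 7 of 11414 reads. At miR-124-2 the count was 23126 of 24306 reads, or 95.1% (94.9 to 95.4%), against 5 of 24430 reads (0.0205%) without a guide and 0.0155 to 0.0304% over the 6 libraries. The Sa4 library stood above all 6 at both hairpins. Here the groups are single libraries, and each test compares the reads of a pair of libraries, not the conditions. Intervals and tests treat every read as independent and cover the counting of reads only. Reads were not collapsed by molecular identifier and mates were counted separately, so a molecule can enter more than once.

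Compared with no guide, miR-124-1 was 83.3 percentage points higher and miR-124-2 95.1 points higher (two-sided Fisher's exact tests, adjusted p = 1.47e-299 for each, with p set to a floor of 1e-300). These were the only amplicons called of the 14 that this pair of libraries shared, 14.3% of them; a call needed an adjusted p under 0.05 and a difference of at least 0.1 points. Against the Cas9-negative library with the same guide the differences were 83.3 and 94.9 points (Fisher's exact tests, adjusted p = 1.97e-299 for each), and 21.4% of 14 amplicons were called. The call beside them was miR-128-2, lower in the Cas9-positive library, with 5 of 77436 reads against 305 of 96117 (a difference of -0.311 points). With only indels of at least 2 bp counted, the differences from no guide were 2.49 and 15.6 points. With only listed sequences of at least 10 reads they were 46.2 and 74.2 points.

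**Figure D2:**
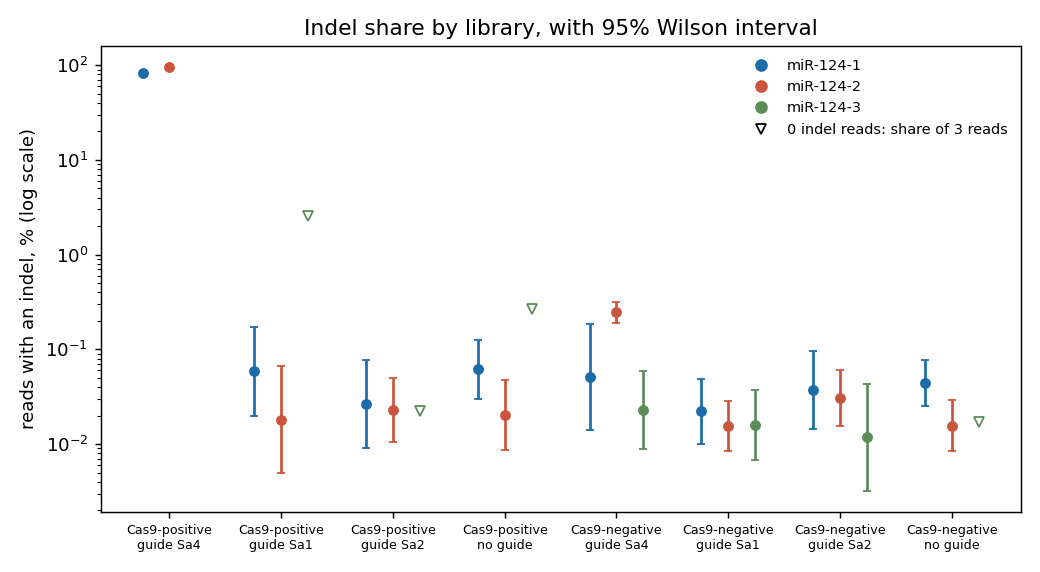
Share of reads with an indel within 10 bp of the predicted cut (percent, log scale) for each hairpin and library; bars are 95% Wilson intervals and open triangles give the share that 3 reads would make where 0 indel reads were seen. Only miR-124-1 (83.3%) and miR-124-2 (95.1%) in Cas9-positive nuclei with guide Sa4 exceed 1%, and miR-124-2 in Cas9-negative nuclei with guide Sa4 (0.245%) is next.

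Reads with more mutations than a limit set by amplicon length, 8 for miR-124-1 and 10 for miR-124-2, are counted in the files without a sequence. A deletion longer than the limit cannot appear as an indel. They made up 12.2% of miR-124-1 reads and 4.76% of miR-124-2 reads in the Cas9-positive Sa4 library, against 10.6 to 10.9% and 4.60 to 4.97% in the 6 libraries without this guide. Among reads within the limit, 94.9% (94.4 to 95.4%) of 8309 reads at miR-124-1 and 99.9% (99.85 to 99.93%) of 23149 reads at miR-124-2 carried an indel. The reads left without one were 421 at miR-124-1 and 23 at miR-124-2. Read directions gave 80.4% forward and 86.0% reverse at miR-124-1, and 88.3% and 96.6% at miR-124-2, with all reads in the denominator.

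Few reads kept mature miR-124-3p whole. Without a guide, its 20 letters were unchanged in 7767 of 11414 miR-124-1 reads (68.0%) and 21550 of 24430 miR-124-2 reads (88.2%). Single substitutions are also counted as changes. The denominators also hold reads beyond the mutation limit, 1210 and 1135 here, in which the strand was not seen and which are not counted as unchanged. The 6 libraries without guide Sa4 stayed within 67.7 to 68.8% and 87.5 to 88.4%. With guide Sa4, 325 of 9468 reads (3.43%; 3.08 to 3.82%) kept it at miR-124-1 and 23 of 24306 (0.0946%; 0.0631 to 0.142%) at miR-124-2. The Cas9-positive Sa4 library was thus below all others at both hairpins. The changes were -64.6 and -88.1 points against no guide (Fisher's exact tests, adjusted p = 1.75e-300 for each over 7 comparisons, p again at its floor). Relative to the share without a guide, 5.04% of the intact strand was left at miR-124-1 and 0.107% at miR-124-2. Reads with no mutation at all gave nearly the same ratios, 5.07% from 216 reads and 0.0925% from 16 reads.

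The indel reads of each hairpin were held by few alleles. At miR-124-1, 33 alleles were read, 14 of them once, and the leading 3 held 93.6% (93.0 to 94.1%) of 7888 indel reads. An inserted cytosine made up 3983 reads (50.5%; 49.4 to 51.6%), an inserted thymine 2050 reads (26.0%; 25.0 to 27.0%), and the deletion of the guanine at base 9 made up 1351 reads (17.1%; 16.3 to 18.0%). The 2-base deletion followed with 197 reads (2.50%). An inserted guanine had 76 reads (0.963%), an inserted adenine 62 reads (0.786%) and a thymine inserted before base 10 had 41 reads (0.520%). The last 2 came mostly from forward reads, 51 of 62 and 35 of 41, while the leading 3 were shared about evenly between directions (cytosine 50.9% of forward and 50.1% of reverse indel reads). All 7 together held 98.4% of the indel reads, and the largest of the other 26 alleles had 21 reads.

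At miR-124-2, 43 alleles were read, 20 of them once, and 3 held 98.4% (98.3 to 98.6%) of 23126 indel reads. The inserted thymine led with 10334 reads (44.7%; 44.0 to 45.3%), then came an inserted guanine with 8730 reads (37.7%; 37.1 to 38.4%) and the deletion of the 4 bases 9 to 12 with 3701 reads (16.0%; 15.5 to 16.5%). Their shares among forward and reverse reads were 42.5 and 45.1%, 38.1 and 37.7%, and 14.8 and 16.2%. The largest of the other 40 alleles had 62 reads (0.268%). Each allele was spread over many listed sequences that differed in other errors, 1586 of them for the thymine insertion. In the 6 libraries without guide Sa4 these 3 alleles were seen in 2, 0 and 0 reads.

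Although the sequence around the cut is the same, the hairpins differed in their alleles within the one library that held both. The inserted cytosine had 50.5% of the miR-124-1 and 0.259% of the miR-124-2 indel reads, a difference of -50.2 points. The inserted guanine went the other way, with 0.963% and 37.7%, a difference of 36.8 points. The inserted thymine was common at both, 18.7 points higher at miR-124-2 (Fisher's exact test on reads, adjusted p = 1.37e-195). The 1-base deletion had 17.1% at miR-124-1 and 0.173% at miR-124-2. The 4-base deletion was not seen in 7888 indel reads of miR-124-1, which allows a share of up to 0.0380%, and the 2-base deletion was not seen in 23126 indel reads of miR-124-2, which allows up to 0.0130%. All 8 alleles named at either hairpin had an adjusted p under 0.05 (100%). This count is no support for a difference, because 6 of them were named for their share at 1 hairpin only. The p-values of those 6 are no support either, since the shares that named them were tested. The inserted thymine and the inserted guanine were named at both. Over all alleles, 28.1% of indel reads would overlap if each allele counted at the smaller of its 2 shares. The difference of the inserted adenine, -0.518 points, was 0.0120 points in forward reads alone (Fisher's exact test, adjusted p = 1). With listed sequences of at least 10 reads only, it and the thymine inserted before base 10 no longer passed.

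**Figure D3:**
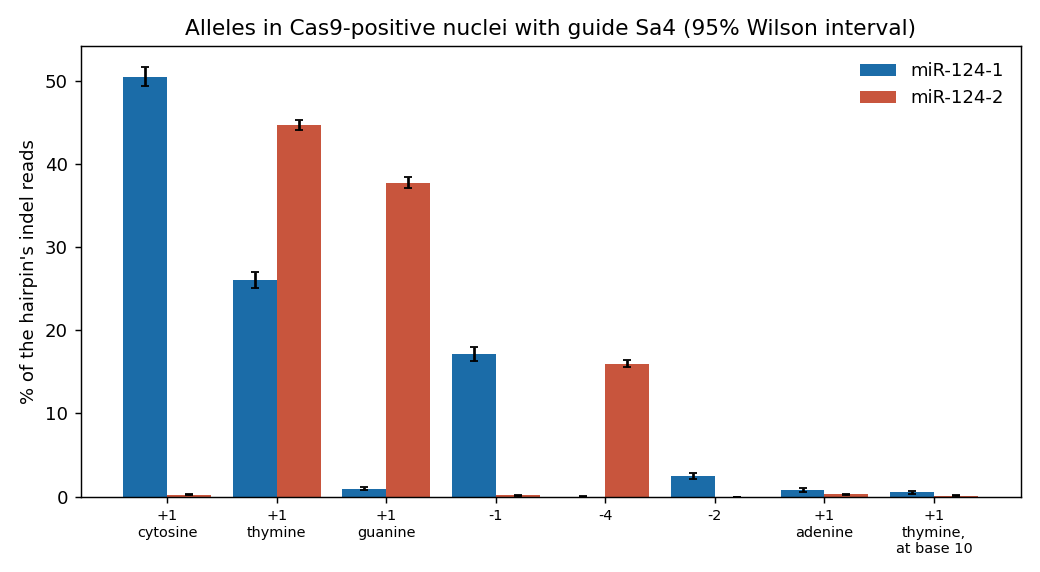
Share of each hairpin's indel reads (percent) held by the 8 alleles named at either hairpin, Cas9-positive nuclei with guide Sa4; bars show the share and whiskers its 95% Wilson interval. The 1-base cytosine insertion (50.5%) and the 1-base deletion (17.1%) stand out at miR-124-1, the guanine insertion (37.7%) and the 4-base deletion (16.0%) at miR-124-2, and the thymine insertion is high at both.

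In size the hairpins were closer. At miR-124-1, 79.5% (78.6 to 80.4%) of indel reads were insertions of 1 base; miR-124-2 had 83.4% (82.9 to 83.9%). No larger net insertion was listed within 10 bp of the cut. Of these insertions, 63.8% added cytosine and 33.5% thymine at miR-124-1, while at miR-124-2 53.7% added thymine and 45.5% guanine. A net loss of 1 base made up 17.4% at miR-124-1 and 0.177% at miR-124-2, a loss of 2 bases 2.97% and 0.0519%, and a loss of 4 bases 0.101% and 16.3%. The 4-base losses of miR-124-1 were of other bases than the leading one of miR-124-2. The largest net deletion within 10 bp of the cut was 4 bases at miR-124-1 and 5 bases at miR-124-2. Bases deleted outside this window were not counted in these sizes.

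The seed letters outlived almost every indel. At miR-124-1 they were unchanged, with base 1 beside them, in 7817 of 7888 indel reads (99.1%; 98.9 to 99.3%). At miR-124-2 this held for 23020 of 23126 (99.5%; 99.4 to 99.6%), substitutions left aside in both counts. The complete mature strand was kept in 0 indel reads of either hairpin. This count was nearly fixed by the definition of an indel read and is no separate finding. Indel reads were chosen by events close to the cut, and almost all of that window lies inside the mature strand. Counted from base 1, the strand matched through base 8 and no further in 94.4% of the miR-124-1 and 61.4% of the miR-124-2 indel reads. A match through base 9 and no further was found in 4.16% and 38.0%, the latter mainly the guanine insertion, whose added letter repeats base 9. The seed was changed by 14 alleles with 71 reads at miR-124-1 and by 17 alleles with 106 reads at miR-124-2, the largest of which had 21 and 33 reads. These counts hold for listed reads only, since larger deletions lie beyond the mutation limit. The files are DNA reads, and which mature strands the edited hairpins yield was not measured.

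**Figure D4:**
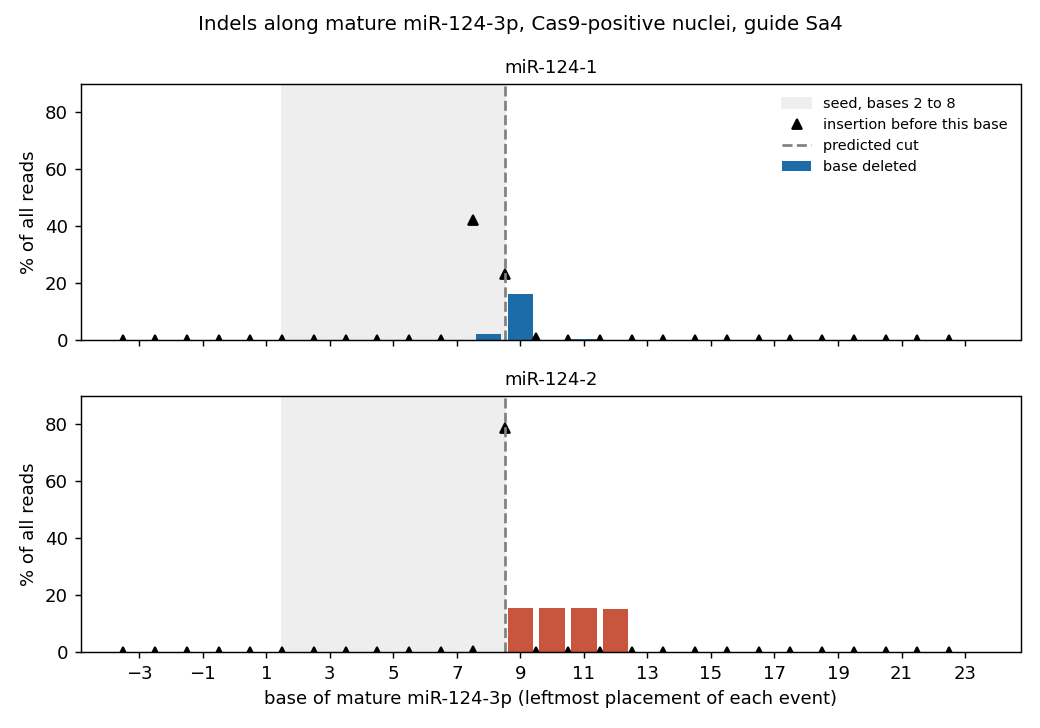
Percent of all reads of miR-124-1 (top) and miR-124-2 (bottom) in which a base of mature miR-124-3p was deleted (bars) or preceded by an insertion (triangles), Cas9-positive nuclei with guide Sa4, with the seed shaded and the predicted cut dashed. Each event sits at its leftmost place, which puts the cytosine insertion of miR-124-1 1 base left of the cut; miR-124-2 has 78.7% of reads with an insertion before base 9 and about equal bars at the 4 deleted bases.

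The fold calculated from each sequence (RNAfold, minimum free energy) describes how each allele could alter the hairpin; it is a calculation and not a measurement. Unedited, the 3 amplicons gave -35.3, -45.8 and -26.1 kcal/mol, and in each 16 of the 20 mature bases paired with the 5p arm. The cytosine insertion, leading at miR-124-1, gave -35.5 kcal/mol, a difference of -0.2 from the unedited sequence, and the thymine insertion lost 2 kcal/mol at either hairpin. The guanine insertion of miR-124-2 lost 3.8 kcal/mol, the 1-base deletion of miR-124-1 lost 5.5 and the 4-base deletion of miR-124-2 lost 11.6. With the inserted base counted in, 16 or 17 of 21 mature bases paired with the 5p arm in every named insertion. After the 1-base deletion 16 of 19 remaining bases paired with it, after the 2-base deletion 15 of 18 and after the 4-base deletion 13 of 16. All named alleles lie in the 3p arm, but only events within 10 bp of the cut could be named.

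In Cas9-negative nuclei with guide Sa4, indels at miR-124-2 rose above the no-guide library, to a level far below that of Cas9-positive nuclei. At miR-124-2, 56 of 22858 reads carried one (0.245%; 0.189 to 0.318%), against 10 of 63719 (0.0157%) without a guide, 8 of 26318 with guide Sa2 and 10 of 64494 with guide Sa1. The difference of 0.229 points passed the test (Fisher's exact test, adjusted p = 6.16e-22), and 13.3% of the 15 amplicons were called in this pair of libraries. The other call was at miR-128-2, the hairpin that guide Sa2 and not guide Sa4 was made against, where 305 of 96117 reads compared with 9 of 151938, a larger difference of 0.311 points (Fisher's exact test, adjusted p = 3.98e-110). A rise in this library was thus also measured at a hairpin that is not the target of its guide. At miR-124-1, 2 of 3902 reads (0.0513%; 0.0141 to 0.187%) compared with 12 of 26954 (0.0445%), and at this depth the difference of 0.00674 points could not be detected (Fisher's exact test, adjusted p = 1). At miR-124-3, 4 of 17520 reads (0.0228%; 0.00888 to 0.0587%) compared with 0 of 17638, which allows up to 0.0170% (Fisher's exact test, adjusted p = 0.545). Whether the hairpins differ in this rise was not tested.

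Their alleles at miR-124-2 were ordered unlike those of Cas9-positive nuclei. Among the 56 indel reads, an inserted adenine had 28 (50.0%; 37.3 to 62.7%), where it held 0.268% (0.209 to 0.344%) of indel reads in Cas9-positive nuclei. The thymine insertion had 15 reads (26.8%; 17.0 to 39.6%) against 44.7%. The guanine insertion and the 4-base deletion had 0 of 56 reads, which allows shares of up to 5.36%, against 37.7% and 16.0%. These shares were not tested against each other. A deletion of 6 bases had 6 reads (10.7%, upper limit 21.5%) and took most of the seed with it; it had 0 of 23126 indel reads in Cas9-positive nuclei, which allows up to 0.0130%. It is printed to show the one named allele that lost the seed.

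6-base deletion, Cas9-negative nuclei, miR-124-2: tAGcggtgaatgcc

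The 28 adenine reads came from 10 listed sequences and the 6 deletion reads from 3. Of these 49 reads of 3 alleles, all but 3 were reverse reads, in a library where 81.0% of all miR-124-2 reads were reverse. The seed letters were unchanged in 47 of the 56 reads (83.9%; 72.2 to 91.3%).

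This Cas9-negative Sa4 library also stood apart in its other errors. Reads without any mutation made up 28.5% at miR-124-1, 55.9% at miR-124-2 and 78.6% at miR-124-3, against 43.5 to 45.6%, 70.5 to 71.9% and 83.0 to 84.6% in the 6 libraries without guide Sa4. Mature miR-124-3p was unchanged in 59.0%, 79.7% and 90.4% of its reads, differences of -8.66, -8.65 and -2.58 points from no guide (Fisher's exact tests, adjusted p from 6.86e-216 to 2.06e-18). Reads beyond the mutation limit have no sequence but stay in these denominators, so the differences are not all changes seen in the strand. They made up 18.0%, 7.97% and 3.29% of this library's reads at the 3 hairpins. The Cas9-negative library without a guide had 10.8%, 4.60% and 2.46%. Substitutions were more frequent than in any of the 6 libraries in every region of miR-124-1 and miR-124-2, for example 3.75% per base in the seed of miR-124-1 in forward reads against 2.19 to 2.34%. The part of these errors in the 56 indel reads was not tested.

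miR-124-3 showed no indel in the Cas9-positive libraries that read it. There were 0 indel reads of 1122 without a guide, which allows a share of up to 0.267%, 0 of 118 with guide Sa1 (up to 2.54%) and 0 of 13566 with guide Sa2 (up to 0.0221%). The Cas9-negative libraries had 5 of 31722 reads with guide Sa1 and 2 of 17002 with guide Sa2, and no allele of miR-124-3 reached 5 reads in any library. Its reads had the fewest errors of the 3 hairpins, with mature miR-124-3p unchanged in 90.8 to 93.3% over the 6 libraries without guide Sa4.

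Substitutions were counted apart from the alleles, which were defined by indels alone. Across the 6 libraries without guide Sa4, the median substitution share per base was 1.56% in forward and 0.984% in reverse reads of miR-124-1, 1.10% and 0.361% in miR-124-2, and 0.327% and 0.263% in miR-124-3. Relative to their median, the values of the 6 libraries spread most at miR-124-3, 0.274 to 0.351% in forward and 0.192 to 0.270% in reverse reads. One of these libraries had only 118 reads of it. At miR-124-1 and miR-124-2 they lay closer together, for instance 0.957 to 1.05% in reverse reads of miR-124-1, where the Cas9-positive Sa4 library had 1.01%. At miR-124-2 that library had 1.19% in forward and 0.408% in reverse reads, above the 1.17% and 0.380% of the highest of the 6. The directions also differed inside the mature strand of miR-124-1. The seed had a median of 2.30% per base in forward and 0.893% in reverse reads, and the rest of miR-124-3p had 2.73% and 0.593%. In miR-124-2 the seed had 1.04% and 0.416%, and in miR-124-3 0.556% and 0.269%.

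By position, the highest shares without a guide in Cas9-positive nuclei were 4.32% at base 65 of miR-124-1, mostly T65A, 4.12% at base 18, mostly T18A, and 3.88% at base 57, mostly G57C. Here position 1 is the first base of the amplicon. Base 65 is mature base 13 and base 57 is mature base 5, inside the seed, whereas base 18 lies in miR-124-5p. Base 57 was substituted in 7.69% of forward and 0.249% of reverse reads, so nearly all of it came from 1 direction. All 8 libraries had it, between 3.87 and 4.32%. In miR-124-2 the leading positions were A83T (1.61%), A10T (1.31%) and A34T (1.25%), all more frequent in reverse reads and none in the mature strand. This order follows the reverse reads, which were 81.9% of the miR-124-2 reads of that library. In forward reads, the medians of the 6 libraries without guide Sa4 peaked at other positions, with 6.16% at base 106, 5.67% at base 100 and 5.48% at base 46. In miR-124-3 they were A20C (1.68%), A50C (1.59%, mature base 7) and T8G (1.03%), from 1069 listed reads. Each of these 9 positions was substituted in every library with reads of its hairpin. This is not particular to them, as they were picked as the most substituted. In the medians of the 6 libraries without guide Sa4, nearly every base away from the amplicon ends was substituted too.

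**Figure D5:**
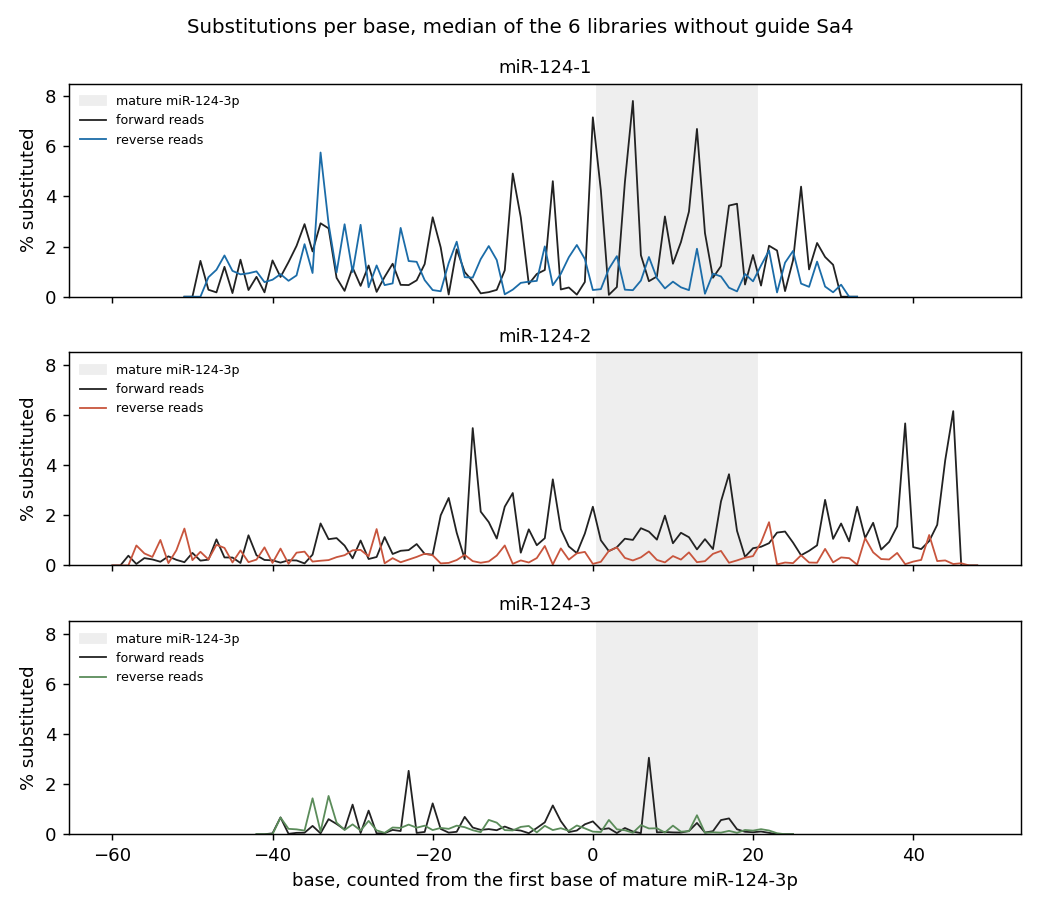
Percent of listed reads with a substitution at each base of the 3 hairpins, counted from the first base of mature miR-124-3p (shaded), as the median of the 6 libraries without guide Sa4, forward and reverse reads apart. Peaks differ between directions, and the highest, 7.81% at mature base 5 of miR-124-1, is in forward reads, while miR-124-3 has the lowest medians over all bases.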

How the data were processed

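Amplicon reads of 8 libraries were analysed from the authors' deposited mutation tables. Per the file headers, each set of reads has read counts, with their percent beside them, by number of mutations, an expected sequence and an entry for each mutated sequence with its read count. The submitters' processing notes name bcl2fastq and cutadapt; an aligner, a mutation caller and a genome build are not given in the sources used here. Files held 311737 to 1013538 reads.

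Each of 62337 listed miR-124 sequences was placed by applying its events to the expected sequence, and 0 could not be placed; placement was tested on simulated alleles. Counts in the mutation classes matched the listed entries. Sets with over 90% of reads beyond the mutation limit (13 over all amplicons, none of miR-124) were left out. Mature strands were located by their seed letters, with lengths as commonly listed. An indel read has an insertion or deletion within 10 bp of the cut, over all reads of both directions; mates were counted separately. Shares carry 95% Wilson intervals, a count of 0 the share of 3 reads. Fisher's exact tests were adjusted by Benjamini-Hochberg over all amplicons in families of 44, 59 and 45 tests; mature-strand tests over 7, alleles over 8. Named alleles hold at least 0.5% of indel reads in the Cas9-positive Sa4 library, or elsewhere are among the 3 largest with 5 or more reads; named positions are the 3 most substituted without a guide. The members and lists were chosen with earlier results of these data known. Alternatives were the window, indel size, read direction, reads per listed sequence, and the treatment of reads beyond the limit and of substitutions. Python 3.11.15, scipy 1.17.1 and RNAfold 2.7.2 were used.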

Additional observations from a re-analysis of the deposited data

Results flagged for a closer look

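Reads beyond the mutation limit enter no allele, and in 3 cases their share exceeded the interval of each of the 6 libraries without guide Sa4. At miR-124-1 they made up 12.2% (11.6 to 12.9%) of reads in Cas9-positive nuclei with guide Sa4 and 18.0% (16.9 to 19.3%) in Cas9-negative nuclei with this guide, against 10.6 to 10.9%. At miR-124-2 the share was 7.97% (7.62 to 8.32%) in Cas9-negative nuclei with guide Sa4, against 4.60 to 4.97%. In Cas9-positive nuclei with this guide it was 4.76% at miR-124-2. By direction, the 6 libraries had 12.4 to 12.9% at miR-124-1 in forward reads and 8.29 to 9.38% in reverse reads. The Cas9-positive Sa4 library had 15.2% and 9.48%, and the Cas9-negative Sa4 library 24.6% and 14.9%. Reverse reads made up 67.9% of miR-124-1 reads in the latter, against 47.8 to 51.2% in the 6 libraries.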

How the results depend on the processing

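The indel differences of Cas9-positive Sa4 nuclei from both comparison libraries, and the loss of the mature strand, kept their direction and call under all alternatives tried (9 and 5 for each). The indel differences moved most with indels of at least 2 bp only, and with at least 10 reads per listed sequence the difference from no guide at miR-124-1 was 46.2 points. In Cas9-negative nuclei with guide Sa4 the difference at miR-124-2 was below 0.1 points with indels of at least 2 bp only (0.0306) or with listed sequences of at least 10 reads only (0.0744). At miR-124-1 it was -0.00882 points in reverse reads alone and 7.27 with reads beyond the limit counted as indel reads. At miR-124-3 that choice gave 0.850 points, and counting substitutions in the window gave 1.92 points. With reads beyond the limit counted as indel reads, 6 amplicons in place of 2 were called with guide Sa4 in Cas9-positive nuclei.

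With listed sequences of at least 10 reads only, the 1-base insertion share was 82.2% at miR-124-1, and the seed letters were unchanged in 100% at both hairpins. Forward reads alone gave seed shares of 99.3% at miR-124-1 and 99.3% at miR-124-2, and 84.1% 1-base insertions at miR-124-2. The adenine insertion reversed its difference between hairpins, to 0.0120 points in forward reads and 0.0554 points with at least 10 reads; that of the thymine before base 10 became 0 points there. Of 90 values of single alleles under an alternative, 74 kept their direction and call or stayed within the main interval. The causes were not tested. No paired analysis was possible because each group is 1 library and the labels give no number that ties a Cas9-positive library to a Cas9-negative one. Reads are not nuclei, and the depth of miR-124-3 gives no allele with guide Sa4 in Cas9-positive nuclei.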
